A study of Homo sapiens with 28 samples.

Results

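The responses of a cell line to wild-type ARID1A and to its paralog wild-type ARID1B were compared in 8 of the 28 RNA sequencing libraries of a study of these proteins. The libraries were chosen by their labels: 2 of AN3CA cells expressing ARID1A WT, 2 of AN3CA cells expressing ARID1B WT and 4 of AN3CA cells with an empty vector, numbered 1 to 4. AN3CA is a human endometrial carcinoma line, grown here in EMEM with fetal bovine serum and with no treatment. All groups are the same line, and the empty vector libraries hold RNA of its endogenous ARID1A and ARID1B. Whether these cells make either protein is not shown by these libraries. The labels state neither the promoter of the constructs, nor whether a group is 1 clone, nor whether replicates were separate cultures, and p-values here therefore speak of the variation among these libraries alone. The other 20 libraries hold mutants of both proteins and enter the fit to share its estimate of the spread.

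ARID1A and ARID1B are the alternative, mutually exclusive large subunits of the canonical BAF complex (cBAF), a chromatin remodeler that slides and evicts nucleosomes with the energy of ATP. Both proteins carry an ARID domain that binds DNA, long disordered N-terminal regions and a C-terminal region that holds the complex together. ARID1A is among the genes most often lost in endometrial carcinoma, and dependence on ARID1B has been described in cells that lose it. Such dependence was not tested here.

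The comparison has 2 readings. The difference of responses is ARID1A WT minus empty vector replicates 1 and 2, less ARID1B WT minus empty vector replicates 3 and 4. The direct contrast is ARID1A WT minus ARID1B WT, and the 2 readings differ by exactly the distance between the empty vector pairs. "Higher" and "lower" below mean with ARID1A WT relative to ARID1B WT. Levels are read counts per 1000000 reads on genes (CPM), and differences are log2 fold changes with their standard error (SE) from edgeR. Calls were made at 0.05 after Benjamini-Hochberg adjustment over all 14220 genes tested.

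Depth in the 8 libraries ran from 16568010 to 22125425 reads on genes, and 1 read was worth 0.0449 to 0.0654 CPM. In the ARID1A WT libraries and empty vector replicates 1 and 2, 84.5 to 87.8% of stranded gene reads lay on the strand opposite to the gene, as counted here. In the ARID1B WT libraries and empty vector replicates 3 and 4 the share was 98.3 to 98.5%. This difference between libraries falls between the sides of the direct contrast and cannot be told apart from the construct there. Of 16 markers of endometrial epithelium, PAX2 stood at 30.9 to 51.2 CPM over the 8 libraries and KRT18 at 10.6 to 48 CPM. ESR1, PGR, SOX17 and FOXA2 held no read in any of them. No endothelial or leukocyte marker, of 18 examined, passed 0.425 CPM in any library. The fibroblast markers DCN, LUM, FAP and DPT held no read, while COL1A2, a fibrillar collagen chain, stood at 2286 to 3720 CPM. The 10 fibroblast markers summed to 4239 to 4383 CPM with ARID1A WT and 4001 to 4096 CPM with ARID1B WT, over 3012 to 3378 CPM and 2481 to 2603 CPM in their empty vector pairs. All 5 tested members rose with both constructs, among them COL3A1 and PDGFRB, the PDGF receptor beta. PDGFRB stood at 32.5 to 35.2 CPM with ARID1A WT, 19.0 to 19.4 CPM with ARID1B WT and 1.35 to 1.9 CPM in the empty vector libraries, and was called higher in both readings (1.28 and 0.82). The part of these markers in the collagen and contractile differences below was not tested. In bulk RNA, fewer cells with a transcript and less transcript per cell cannot be told apart.

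The targeted genes followed the labels. ARID1A stood at 702 and 764 CPM in the ARID1A WT libraries and at 272 and 296 CPM in their empty vector pair. It stood at 203 and 225 CPM in the ARID1B WT libraries and at 299.6 and 287 CPM in theirs. ARID1A RNA was thus 2.58-fold up with its own construct and 1.37-fold down with ARID1B WT, with adjusted p = 1.72e-13 and 6.42e-05. ARID1B stood at 3438 and 3757 CPM in the ARID1B WT libraries, at 88.5 and 100.4 CPM in their empty vector pair, at 65.6 and 68.7 CPM with ARID1A WT and at 99.6 and 103.5 CPM in the remaining pair. It was 38.0-fold up with its own construct and 1.51-fold down with ARID1A WT, with adjusted p = 3.14e-26 and 9.76e-08. Each paralog's RNA was lower where the other was expressed, and the 2 constructs reached unequal excess over the endogenous RNA. Reads of a construct and of the endogenous gene are counted together, and the part of construct level in the differences below was not tested.

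The difference of responses called 5910 genes, 41.6% of those tested, of which 3252 (22.9%) were higher and 2658 (18.7%) lower. The direct contrast called 5012 genes, 35.2%, with 2879 (20.2%) higher and 2133 (15.0%) lower. The empty vector pairs themselves differed in 8315 genes, 58.5%, with 29.7% higher and 28.8% lower in replicates 1 and 2. Against its own pair, ARID1A WT changed 60.7% of genes (29.9% up, 30.8% down) and ARID1B WT 52.0% (23.6% up, 28.5% down). The median log2 fold change over all tested genes was 0.0087 for the difference of responses and 0.017 for the direct contrast. Among genes at least 2-fold apart, the difference of responses had 566 higher (3.98% of genes tested) and 433 lower (3.05%). In 80.7% of those 566 genes and 87.3% of those 433, the distance between the empty vector pairs was as large as the direct contrast or larger. Of the 566, the direct contrast was called the same way in 278, called the opposite way in 43 and not called in 245. Of the 433 the corresponding counts were 112, 52 and 269. Most large differences of response therefore had more distance between their empty vector pairs than between the ARID1A WT and ARID1B WT libraries.

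**Figure D1:**
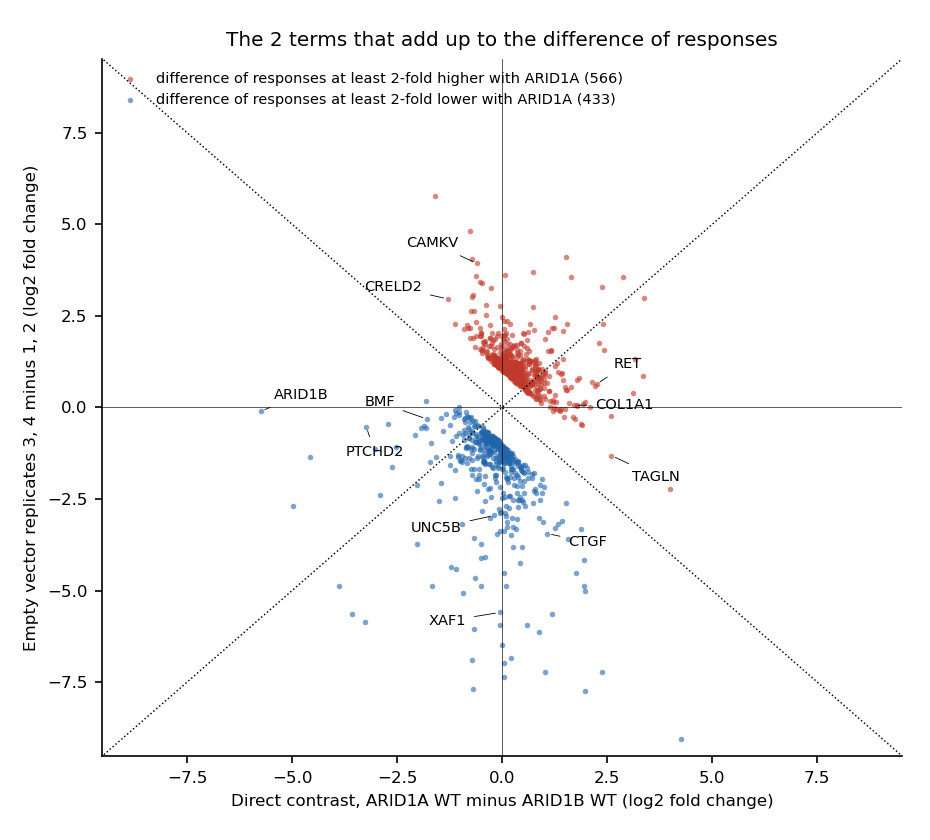
Direct contrast (x axis) against the distance between the empty vector pairs (y axis), both as log2 fold changes, for the genes whose difference of responses was called and at least 2-fold. The y axis is replicates 3 and 4 minus 1 and 2, so a point's 2 coordinates add up to its difference of responses, the dotted lines mark terms of equal size, and 566 genes (red) were higher and 433 (blue) lower with ARID1A WT, most of them between the dotted lines above and below the centre.

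The 2 readings called the same gene the same way in 1015 cases higher (7.14% of genes tested) and 613 lower (4.31%). At least 2-fold in both readings were 64 genes higher (0.45%) and 36 lower (0.253%). The direct contrast at least 2-fold held 646 genes higher (4.54%) and 121 lower (0.851%), and with strand ignored 317 of the 646 and 101 of the 121 were again called at least 2-fold. For the difference of responses 529 of 566 and 364 of 433 were. The genes named next were at least 2-fold apart in both readings with and without strand, averaged a log2 CPM of 1 or more, had at least 0.5 CPM in both empty vector pairs on average, and had no overlap between ARID1A WT and ARID1B WT libraries. That rule was met by 21 genes higher, of which the 12 furthest apart are shown, and 11 lower.

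**Figure D2:**
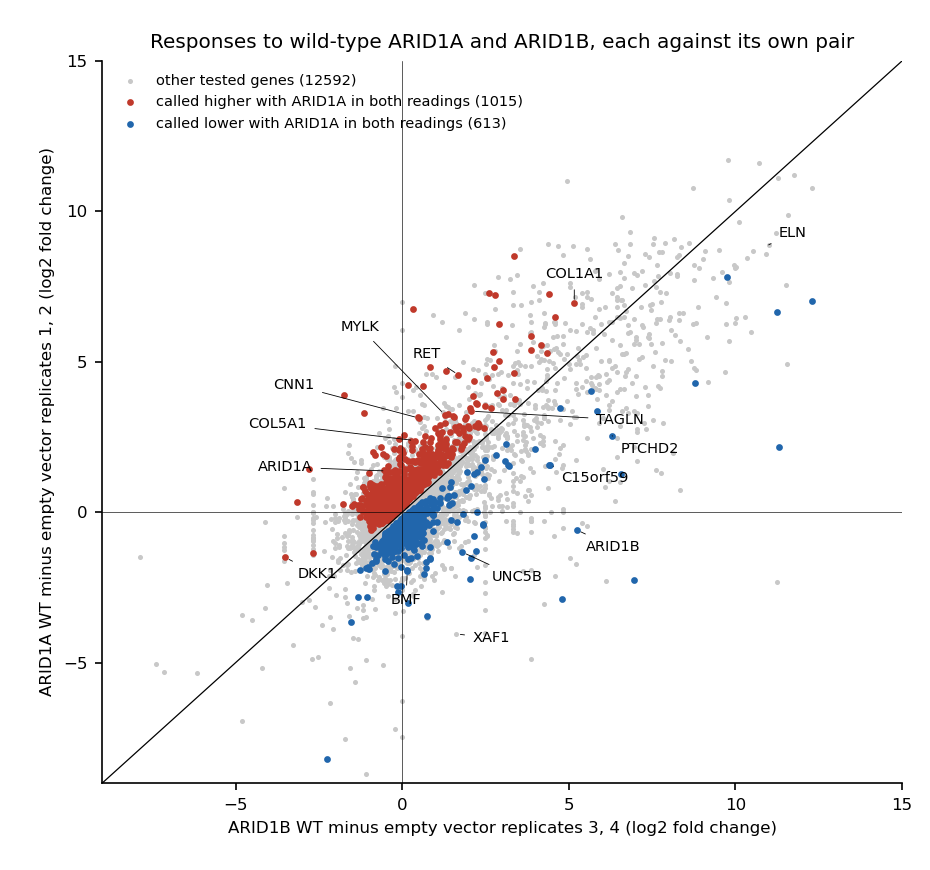
Log2 fold change of each tested gene with ARID1A WT (y axis) and with ARID1B WT (x axis), each against its own empty vector pair; the line marks equal responses. The 1015 genes called higher in both readings (red) lie above the line and the 613 called lower (blue) lie below it, with ARID1B, PTCHD2 and C15orf59 far to the right of the line and RET, CNN1 and COL5A1 above it.

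RET, the receptor tyrosine kinase for ligands of the GDNF family, was the furthest apart of the higher genes by the smaller of its readings. It stood at 30 and 28.1 CPM with ARID1A WT and 1.13 and 1.3 CPM in that empty vector pair, against 5.71 and 6.47 CPM with ARID1B WT and 1.44 and 2.3 CPM in the other pair. Both constructs raised RET, and the ARID1A WT libraries lay far above all others. The response was 23.7-fold with ARID1A WT and 3.22-fold with ARID1B WT, and the difference of responses was 2.88 ± 0.31 (SE, adjusted p = 3.18e-08) beside a direct contrast of 2.24 ± 0.11 (adjusted p = 4.38e-14).

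DKK1, a secreted antagonist of WNT receptors, fell with both constructs. It stood at 2.05 and 3.05 CPM with ARID1A WT and 0.769 and 0.614 CPM with ARID1B WT, while the 4 empty vector libraries held 7.19 to 8.36 CPM. The fall was 2.84-fold with ARID1A WT and 11.4-fold with ARID1B WT, so DKK1 counts as higher with ARID1A WT because it fell less. Its readings were 2.0 ± 0.33 (adjusted p = 1.71e-05) for the difference of responses and 1.91 ± 0.29 (adjusted p = 1.12e-05) for the direct contrast.

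Of the collagen list, 7 of 25 tested members were higher (28%) and 4 lower (16.0%) in the difference of responses. These shares are near the 22.9% and 18.7% of all genes. In the direct contrast 12 were higher and 0 lower, where 20.2% and 15.0% of all genes were called. COL5A1, a chain of fibrillar type V collagen, stood at 102.7 and 96.3 CPM with ARID1A WT over 19.5 and 18.7 CPM in its pair, and at 32.4 and 35.9 CPM with ARID1B WT over 24.6 and 27.8 CPM. COL5A1 rose 5.21-fold with ARID1A WT and 1.3-fold with ARID1B WT, a difference of 2.0 ± 0.13 (adjusted p = 3.99e-12). COL1A1, the main chain of type I collagen, stood at 88.4 and 90.2 CPM with ARID1A WT, 25.2 and 29 CPM with ARID1B WT and 0.39 to 1.18 CPM in the empty vector libraries. Its difference of responses of 1.78 ± 0.46 (adjusted p = 0.00286) rests on those few empty vector reads: without empty vector replicate 3 it was 0.84 with adjusted p = 0.342. COL18A1, the chain from which endostatin is cut, stood at 217 and 215 CPM with ARID1A WT over 69.6 and 72.4 CPM, and at 95.2 and 106 CPM with ARID1B WT over 54.3 and 54.9 CPM. Both readings were called for COL18A1, with a difference of responses of 0.72 ± 0.11 (adjusted p = 9.15e-06) beside a direct contrast of 1.10 ± 0.08 (adjusted p = 1.64e-11).

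The others among the 12 were, beside ARID1A itself, the potassium channel KCNJ4, the secreted matrix glycoprotein ECM1, the actin-binding transgelins TAGLN and TAGLN2, the calponin CNN1, METTL7B and KCNIP3, a calcium-binding partner of potassium channels. ECM1 stood at 18.8 and 21.0 CPM with ARID1A WT, 6.48 and 5.52 CPM with ARID1B WT and 1.06 to 1.98 CPM in the empty vector libraries. Both constructs raised ECM1, and its difference of responses was 1.42 ± 0.27 (adjusted p = 0.000138). KCNJ4 stood at 3.86 and 4.78 CPM with ARID1A WT, 1.54 and 1.56 CPM with ARID1B WT and 2.81 to 3.01 CPM in all 4 empty vector libraries, so it moved up with one paralog and down with the other. These opposite moves were each under 2-fold (0.57 and -0.87) and were called, with adjusted p = 0.00615 and 0.00271. METTL7B stood at 3.98 and 4.03 CPM with ARID1A WT and 3.54 to 4.13 CPM in the empty vector libraries, and at 1.59 and 1.70 CPM with ARID1B WT. Its difference of responses, 1.43 ± 0.24 (adjusted p = 2.89e-05), came with a called fall with ARID1B WT of 1.31 and a change of 0.12 with ARID1A WT that was not called (adjusted p = 0.521).

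On the lower side, after ARID1B itself, PTCHD2 (now DISP3), of the Dispatched family of membrane proteins, stood at 6.32 and 6.79 CPM with ARID1A WT and at 59.2 and 64.8 CPM with ARID1B WT, over 0.725 to 1.18 CPM in the empty vector libraries. Both constructs raised it, 5.81-fold and 78.7-fold. For PTCHD2 the difference of responses was -3.76 ± 0.42 (adjusted p = 7.31e-08) beside a direct contrast of -3.24 ± 0.12 (adjusted p = 7.1e-17). C15orf59 (now INSYN1, a protein of inhibitory synapses) stood at 8.78 and 8.76 CPM with ARID1A WT and at 36.4 and 37.9 CPM with ARID1B WT, over 1.73 to 3.06 CPM. For C15orf59 the difference of responses was -2.84 ± 0.22 (adjusted p = 1.25e-10). SLC22A4, an ergothioneine and organic cation transporter, stood at 2.99 and 3.23 CPM with ARID1A WT, 11.2 and 10.9 CPM with ARID1B WT and 0.816 to 1.44 CPM in the empty vector libraries. These 3 genes rose with both paralogs and rose more with ARID1B WT.

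Other genes on the lower side fell with ARID1A WT and moved little with ARID1B WT. BMF, a BH3-only promoter of apoptosis, stood at 11.4 and 11.2 CPM with ARID1A WT over 43.4 and 44.1 CPM, and at 38.2 and 39.7 CPM with ARID1B WT over 34.9 and 35.4 CPM. It fell 3.89-fold with ARID1A WT, while the change with ARID1B WT, 0.15, was not called (adjusted p = 0.0546). The difference of responses of BMF was -2.11 ± 0.10 (adjusted p = 1.48e-14). ASS1, argininosuccinate synthase of arginine synthesis, stood at 63.2 and 66.0 CPM with ARID1A WT over 190.1 and 192.5 CPM, and at 172.6 and 181.8 CPM with ARID1B WT over 152.3 and 160.3 CPM. It fell 2.96-fold with ARID1A WT and rose 1.13-fold with ARID1B WT, both called, with a difference of responses of -1.75 ± 0.07 (adjusted p = 1.2e-15). NDUFA4L2, a mitochondrial protein known from hypoxia, stood at 47.8 and 52.4 CPM with ARID1A WT and at 108.6 to 148.3 CPM in the other 6 libraries. For NDUFA4L2 the difference of responses was -1.40 ± 0.10 (adjusted p = 3.67e-11).

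ALDH1A2, which makes retinoic acid, fell with both constructs, to 4.57 and 5.11 CPM with ARID1A WT from 56.9 and 64.3 CPM, and to 11.5 and 10.9 CPM with ARID1B WT from 33.4 and 31.3 CPM. The empty vector pairs of ALDH1A2 do not overlap either, and the difference of responses was -2.11 ± 0.15 (adjusted p = 3.75e-11) beside a direct contrast of -1.21 ± 0.13. CAPN3, a muscle calpain, stood at 1.23 and 1.36 CPM with ARID1A WT over 3.49 and 4.81 CPM, and at 2.47 and 2.88 CPM with ARID1B WT over 1.5 and 1.73 CPM. PIH1D2 stood at 1.58 and 0.89 CPM with ARID1A WT and 1.90 to 2.60 CPM elsewhere. Without ARID1A WT replicate 2, PIH1D2 was not called in either reading, at -0.85 (adjusted p = 0.106) and -0.71 (adjusted p = 0.111).

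**Figure D3:**
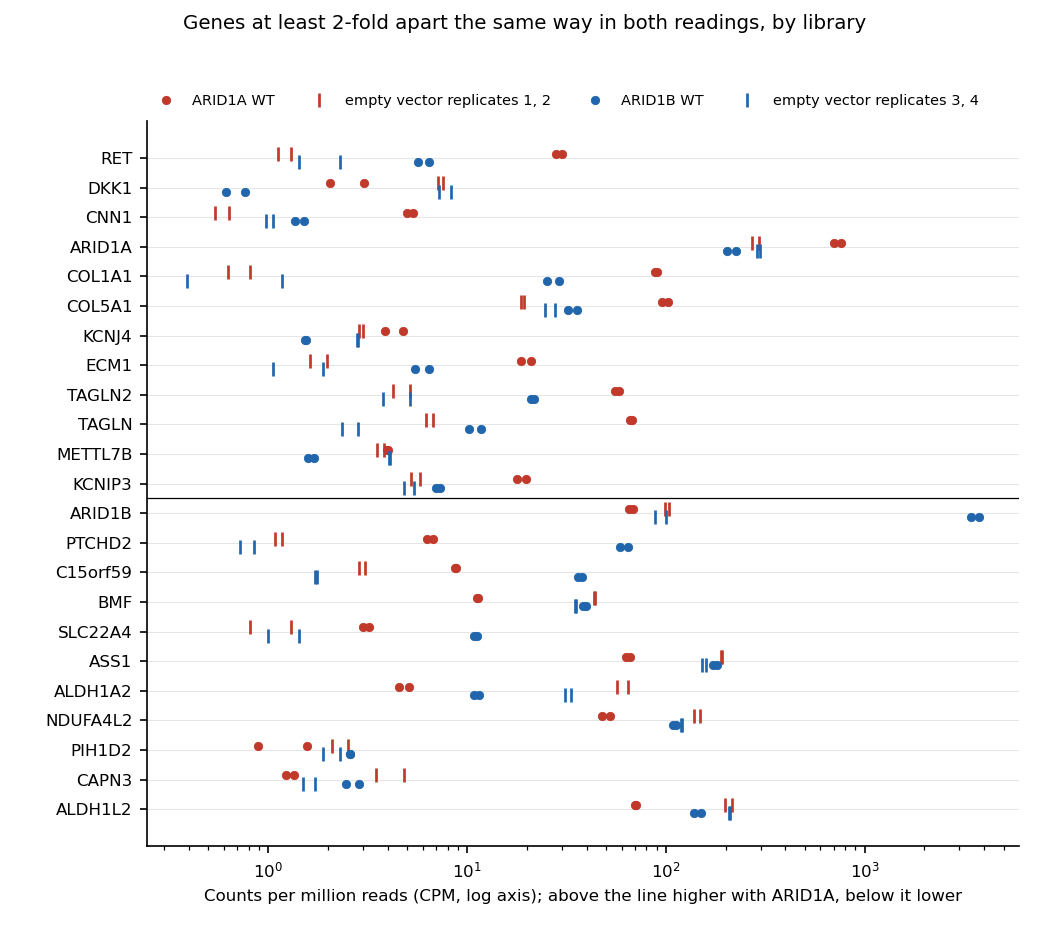
CPM in each of the 8 libraries (log axis) for the 12 genes named as higher, above the line, and the 11 as lower, below it; dots are ARID1A WT (red) and ARID1B WT (blue), and ticks are their empty vector pairs in the same colours. RET, CNN1 and COL5A1 have red dots far to the right of all other marks, PTCHD2 and C15orf59 have blue dots there, and BMF and ASS1 have red dots to the left of all other marks.

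Members of a list of smooth muscle contractile genes were mostly higher with ARID1A WT. The list also holds genes not limited to smooth muscle, among them MYH9, MYH10, CNN2, CNN3, TAGLN2 and TPM4. Of 18 tested members of the list, 12 were higher (66.7%) and 1 lower (5.56%) in the difference of responses (median 0.54). Over all genes the shares were 22.9% and 18.7%. In the direct contrast 13 were higher and 0 lower (median 0.62), beside 20.2% and 15.0% of all genes. Called higher in both were 8 members, 44.4% of the list, beside 7.14% of all tested genes. In their own-pair responses 16 members rose with ARID1A WT and 13 with ARID1B WT, with medians of 1.43 and 1.19.

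CNN1, which binds actin in smooth muscle, stood at 5.39 and 5.01 CPM with ARID1A WT over 0.635 and 0.539 CPM, and at 1.37 and 1.51 CPM with ARID1B WT over 0.981 and 1.06 CPM. The rise of 8.76-fold with ARID1A WT was called, and the change of 0.50 with ARID1B WT was not (adjusted p = 0.167). The difference of responses of CNN1 was 2.63 ± 0.40 (adjusted p = 5.68e-06). TAGLN, an actin-binding marker of smooth muscle, stood at 67.6 and 66.3 CPM with ARID1A WT over 6.26 and 6.79 CPM, and at 10.2 and 11.8 CPM with ARID1B WT over 2.35 and 2.84 CPM. For TAGLN the difference of responses was 1.28 ± 0.19 (adjusted p = 6.03e-06), smaller than its direct contrast of 2.60 ± 0.08, since its empty vector pairs lay 1.32 apart the same way. TAGLN2 stood at 58.3 and 55.7 CPM with ARID1A WT, 21.0 and 21.8 CPM with ARID1B WT and 3.79 to 5.18 CPM in the empty vector libraries, a difference of responses of 1.35 ± 0.18 (adjusted p = 8.76e-07).

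MYLK, the kinase of the myosin light chain, stood at 90.2 and 94.5 CPM with ARID1A WT over 9.44 to 10 CPM, and at 47.4 and 48.9 CPM with ARID1B WT over 19.2 and 20.7 CPM. Both paralogs raised MYLK, with a difference of responses of 1.98 ± 0.14 (adjusted p = 1.24e-11) and a direct contrast of 0.94 ± 0.08 (adjusted p = 4e-10). TPM4, a tropomyosin, stood at 813 and 848 CPM with ARID1A WT over 537 and 545 CPM, and at 685 and 690 CPM with ARID1B WT over 611 and 620 CPM. The remaining members called higher in both readings, picked out after their values were seen, were LMOD1 (1.67 and 0.87), CNN2 (0.59 and 0.18) and MYH9 (0.42 and 0.69), with the difference of responses first and the direct contrast second. ACTA2, the smooth muscle actin, went opposite ways, at -1.39 in the difference of responses and 0.96 in the direct contrast, both called.

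The promoter windows shown here belong to members called in both readings and hold a motif searched for. They are the 250 bases before a RefSeq start (GRCh38.p14, whereas the counts were made on hg19), 5′ to 3′ on the strand of the gene, with the motif in capitals. The AP-1 motif was TGANTCA and the TEAD motif GGAATG, each on both strands, and the CArG box, bound by SRF at muscle genes, was added after the values were seen. For MYLK (chr3:123620549-123620798, minus strand) and TPM4 (chr19:16067288-16067537, plus strand) the capitals mark a CArG box. For ECM1 (chr1:150507859-150508108, plus strand), TAGLN2 (chr1:159924596-159924845, minus strand), KCNJ4 (chr22:38444029-38444278, minus strand) and PTCHD2 (chr1:11478905-11479154, plus strand) they mark AP-1 motifs. These windows are a selection. Among those not shown are DKK1, LMOD1, MYH9, SLC22A4 and PIH1D2 with a TEAD motif and CNN2 with a CArG box. TAGLN2 and TPM4 each have 3 starts, and their other windows hold no motif searched for. For the TAGLN2 and PTCHD2 windows shown, the bases after the start were not found in the transcript on the gene's strand.
MYLK: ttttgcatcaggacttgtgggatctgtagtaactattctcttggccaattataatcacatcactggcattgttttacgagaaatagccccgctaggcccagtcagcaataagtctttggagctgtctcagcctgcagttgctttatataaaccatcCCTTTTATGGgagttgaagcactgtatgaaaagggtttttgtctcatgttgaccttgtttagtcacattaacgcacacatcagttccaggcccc
TPM4: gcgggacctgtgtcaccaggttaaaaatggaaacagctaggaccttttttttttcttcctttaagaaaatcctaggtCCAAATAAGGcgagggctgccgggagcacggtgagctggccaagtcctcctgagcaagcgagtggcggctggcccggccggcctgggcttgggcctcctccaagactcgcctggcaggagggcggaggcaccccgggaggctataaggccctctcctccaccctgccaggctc
ECM1: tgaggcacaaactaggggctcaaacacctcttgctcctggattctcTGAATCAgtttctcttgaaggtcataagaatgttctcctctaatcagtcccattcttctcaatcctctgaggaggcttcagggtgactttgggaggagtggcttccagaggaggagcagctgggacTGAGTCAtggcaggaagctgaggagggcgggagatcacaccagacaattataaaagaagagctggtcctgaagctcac
TAGLN2: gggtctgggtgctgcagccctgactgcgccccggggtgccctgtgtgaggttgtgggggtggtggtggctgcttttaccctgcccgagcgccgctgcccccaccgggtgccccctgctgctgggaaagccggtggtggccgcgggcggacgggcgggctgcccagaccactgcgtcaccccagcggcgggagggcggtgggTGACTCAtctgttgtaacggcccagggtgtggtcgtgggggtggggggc
KCNJ4: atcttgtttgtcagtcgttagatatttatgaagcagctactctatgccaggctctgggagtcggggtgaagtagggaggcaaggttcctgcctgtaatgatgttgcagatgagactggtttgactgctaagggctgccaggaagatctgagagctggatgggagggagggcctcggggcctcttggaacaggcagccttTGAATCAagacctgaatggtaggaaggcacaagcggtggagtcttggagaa
PTCHD2: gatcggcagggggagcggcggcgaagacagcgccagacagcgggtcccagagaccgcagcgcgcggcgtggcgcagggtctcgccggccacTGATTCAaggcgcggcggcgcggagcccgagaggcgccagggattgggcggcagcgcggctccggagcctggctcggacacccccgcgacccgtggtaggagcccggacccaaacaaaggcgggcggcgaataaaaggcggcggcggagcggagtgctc

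A CArG box lay in a window of 5 of the 15 smooth muscle members with an entry in the table, and in 1.43% of the 10935 tested genes with an entry. The 5 were MYLK, TPM4, CNN2, ACTG2 and SMTN, of which the first 3 were called higher in both readings. A TEAD motif lay in a window of 7 of the same 15 members (46.7%) and an AP-1 motif in 2 (13.3%). Among tested genes with an entry the shares were 13.2% and 6.0%. Over the whole promoter table the box was in 1.16% of 35116 windows, the AP-1 motif in 6.57% and the TEAD motif in 11.9%. Of the 12 genes named as higher, 10 had an entry, and 3 of these held an AP-1 motif, 1 a TEAD motif and 0 a CArG box. Of the 11 named as lower, 10 had an entry, and 1 held an AP-1 motif and 2 a TEAD motif. Counted by gene in the same way, tested genes held them in 6.0% (AP-1), 13.2% (TEAD) and 1.43% (CArG). These matches describe the letters of the windows, and binding was not measured.

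Integrins are the cell's receptors for the matrix, and adhesion proteins couple them to actin. Of 31 tested integrins and adhesion proteins, 9 were higher (29%) and 4 lower (12.9%) in the difference of responses (median 0.27). Over all genes the shares were 22.9% and 18.7%. In the direct contrast 15 were higher and 2 lower (median 0.30), beside 20.2% and 15.0% of all genes. The 8 higher in both readings, 25.8% of the list beside 7.14% of all genes, were ITGA5 and ITGA7, the receptor chains for fibronectin and laminin, and proteins that tie integrins to actin, namely VCL, TLN1, TLN2, ACTN1, ACTN4 and FLNA. ACTN4 stood at 426 and 448 CPM with ARID1A WT over 140 and 147 CPM, and at 345 and 366 CPM with ARID1B WT over 179 and 190.5 CPM, a difference of responses of 0.66 ± 0.07 (adjusted p = 6.18e-08). ITGA5, picked out after its values were seen, had 1.97 and 1.11 in the 2 readings. LAMB1, a laminin chain, stood at 325 and 330.4 CPM with ARID1A WT, at 158 and 161 CPM with ARID1B WT and at 7.59 to 8.32 CPM in the empty vector libraries. Its response was 39.5-fold with ARID1A WT and 20.1-fold with ARID1B WT, and the difference of 0.97 ± 0.12 (adjusted p = 4.91e-07) is close to its direct contrast of 1.04 ± 0.06. TLN2 was called in the direct contrast (0.21, adjusted p = 0.0455) but not once any of the 8 libraries was left out.

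Among matrix glycoproteins 20 of 34 members were higher and 6 lower in the direct contrast, beside 20.2% and 15.0% of all genes. The difference of responses had 8 higher (23.5%) and 9 lower (26.5%), beside 22.9% and 18.7% of all genes. SPARC, which binds collagen, stood at 413 and 414 CPM with ARID1A WT over 31.3 and 30.2 CPM, and at 337 and 329.5 CPM with ARID1B WT over 42.5 and 39.6 CPM. It was higher in both readings, at 0.73 ± 0.07 and 0.31 ± 0.04. TNC, tenascin C, stood at 135 and 147 CPM with ARID1A WT over 7.66 and 6.74 CPM, and at 186 and 189 CPM with ARID1B WT over 0.327 and 0.502 CPM. TNC was lower in both readings, at -4.49 ± 0.29 and -0.41 ± 0.07, and nearly all of the first value lay between the empty vector pairs.

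Genes of amino acid supply under ATF4, the transcription factor of the amino acid stress response, mostly fell with both constructs, and many were lower with ARID1A WT than with ARID1B WT. Of 38 tested members, 35 fell with ARID1A WT (median -1.10) and 34 with ARID1B WT (median -0.64). In the difference of responses 26 were lower (68.4%) and 3 higher (7.89%), with a median of -0.41, beside 18.7% and 22.9% of all genes. In the direct contrast 23 were lower and 5 higher (median -0.28), beside 15.0% and 20.2% of all genes. Called lower in both were 16 members, 42.1%, beside 4.31% of all tested genes, and 1, the lipoprotein receptor VLDLR, was called higher in both.

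ASNS, asparagine synthetase, stood at 214 and 209 CPM with ARID1A WT over 755 and 729.7 CPM, and at 404 and 377 CPM with ARID1B WT over 811 and 785 CPM. The fall was 3.51-fold and 2.04-fold, and both readings were called, at -0.78 ± 0.06 (adjusted p = 2.03e-10) and -0.88 ± 0.05 (adjusted p = 5.11e-14). ALDH1L2, of mitochondrial folate metabolism, stood at 70.3 and 71.3 CPM with ARID1A WT over 199 and 216.5 CPM, and at 139 and 150.7 CPM with ARID1B WT over 212 and 207 CPM. Its readings of -1.02 ± 0.12 and -1.03 ± 0.08 were alike, since its empty vector pairs lay -0.01 apart. The members lower in both readings included 7 aminoacyl-tRNA synthetases, AARS, GARS, WARS, YARS, SARS, EPRS and MARS, and the serine synthesis enzymes PHGDH and PSAT1. TRIB3, ATF5 and STC2 were lower in the difference of responses, but their direct contrasts were 0.29, -0.09 and -0.05. TRIB3, an inhibitor of AKT, stood at 74.4 and 77.9 CPM with ARID1A WT and 62.4 and 62.2 CPM with ARID1B WT, and at 397 and 379 CPM against 94.2 and 85.8 CPM in the empty vector pairs.

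For several lists the 2 readings diverged. Over all tested genes, 22.9% were higher and 18.7% lower in the difference of responses, and 20.2% and 15.0% in the direct contrast. All 46 genes of DNA replication and mitosis were higher in the difference of responses (median 1.03), while 31 were higher and 1 lower in the direct contrast (median 0.24), and 45 were lower in empty vector replicates 1 and 2 than in 3 and 4. RRM2, a subunit of ribonucleotide reductase, stood at 174 and 176 CPM with ARID1A WT over 101 and 101 CPM, and at 148 and 144 CPM with ARID1B WT under 243 and 245 CPM. CDC6, which licenses replication origins, stood at 58.1 and 57.1 CPM with ARID1A WT over 35.0 and 33.2 CPM, and at 61.8 and 64.2 CPM with ARID1B WT under 130.7 and 131.5 CPM. In RRM2 and CDC6 the ARID1A WT and ARID1B WT libraries lay closer to each other than their empty vector pairs did.

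Cholesterol synthesis had 22 of 24 higher (91.7%) and 0 lower in the difference of responses (median 0.88), beside 22.9% and 18.7% of all genes. In the direct contrast, however, 1 member was higher and 16 lower (median -0.21), beside 20.2% and 15.0% of all genes. HMGCS1, which makes HMG-CoA for the pathway, stood at 591 and 569 CPM with ARID1A WT over 252 and 244 CPM, and at 711 and 688 CPM with ARID1B WT over 671 and 663.5 CPM. Ribosomal proteins had 44 of 72 members higher (61.1%) and 0 lower in the difference of responses, against 1 higher and 62 lower in the direct contrast. Chaperones of the endoplasmic reticulum had 13 of 23 higher (56.5%) and 6 lower (26.1%) against 0 higher and 20 lower. CRELD2, an ER stress protein of this list, stood at 127.6 and 121 CPM with ARID1A WT over 64.2 and 57.8 CPM, and at 306 and 305 CPM with ARID1B WT under 458 and 492 CPM. CRELD2 had a difference of responses of 1.66 ± 0.11 and a direct contrast of -1.30 ± 0.08, both called.

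The p53 targets went the other way round. They had 2 of 26 higher (7.69%) and 19 lower (73.1%) in the difference of responses (median -0.63). In the direct contrast they had 14 higher and 2 lower (median 0.22). Immediate early genes had 7 of 37 higher (18.9%) and 13 lower (35.1%) in the difference of responses, beside 22.9% and 18.7% of all genes, and 21 higher and 1 lower in the direct contrast, beside 20.2% and 15.0%. Targets of TEAD and YAP had no common direction in the difference of responses, with 6 of 24 higher (25.0%) and 7 lower (29.2%), while 16 were higher and 0 lower in the direct contrast. CTGF and CYR61 are matricellular proteins and standard YAP targets. CYR61 stood at 169 and 170.2 CPM with ARID1A WT over 57.4 and 55.3 CPM, and at 71.1 and 71.9 CPM with ARID1B WT over 13.9 and 14.8 CPM. It rose with both paralogs and was highest with ARID1A WT, yet its difference of responses was -0.73 ± 0.08 (adjusted p = 1.03e-07) beside a direct contrast of 1.25 ± 0.05 (adjusted p = 4.58e-16). HOX genes had 19 of 29 higher (65.5%) and 3 lower (10.3%) in the difference of responses. In the direct contrast 2 were higher and 8 lower, beside 20.2% and 15.0% of all genes. What separates the empty vector pairs is not given in the labels, and its part in these lists was not tested.

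**Figure D4:**
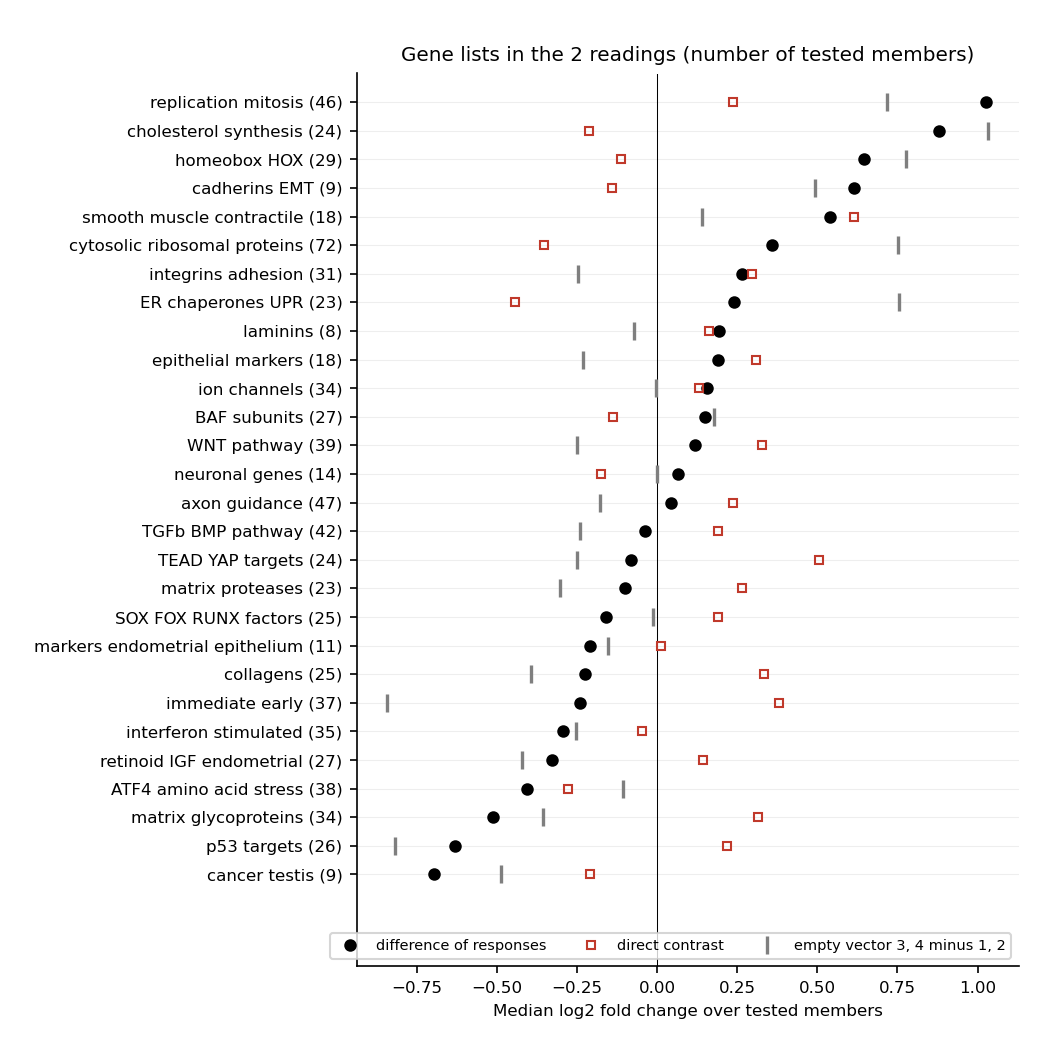
Median log2 fold change over the tested members of each gene list with at least 8 of them (number in brackets) for the difference of responses (black dots), the direct contrast (red squares) and the distance between the empty vector pairs (grey ticks). Dots and squares lie on the same side of 0 and near each other for smooth muscle contractile genes (0.54 and 0.62), integrins and adhesion (0.27 and 0.30) and ATF4 genes (-0.41 and -0.28), and on opposite sides for cholesterol synthesis (0.88 and -0.21).

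Only 5 genes met the rule for opposite responses, called and at least 2-fold up with one paralog and down with the other. CAMKV, a kinase-like vesicle protein of neurons, stood at 2.05 and 2.48 CPM with ARID1A WT over 0.544 and 0.764 CPM, and at 3.13 and 3.78 CPM with ARID1B WT under 10.2 and 9.92 CPM. It rose 3.47-fold and fell 2.89-fold. UNC5B, a netrin receptor, stood at 133 and 133 CPM with ARID1A WT under 338 and 332 CPM, and at 149 and 155 CPM with ARID1B WT over 45.3 and 41.5 CPM. It fell 2.52-fold and rose 3.50-fold. GDF15, a stress-induced cytokine of the TGF-β family, stood at 72.4 and 69.4 CPM with ARID1A WT under 149 and 147 CPM, and at 36.6 and 35.7 CPM with ARID1B WT over 18.4 and 15.4 CPM. It fell 2.09-fold and rose 2.14-fold, and its direct contrast of 0.97 ± 0.08 ran against its difference of responses of -2.16 ± 0.11. The interferon-induced genes XAF1 and SAMD9L fell with ARID1A WT (-4.04 and -1.85) and rose with ARID1B WT (1.62 and 1.47). In all 5 genes the ARID1A WT and ARID1B WT libraries lay between the empty vector pairs.

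Among genes of that same average level, 162 had a difference of responses called at least 2-fold higher with a direct contrast that was not called, and 125 had one called lower. CDH15, a muscle cadherin, stood at 4.16 and 3.56 CPM with ARID1A WT and 4.34 and 3.12 CPM with ARID1B WT, over 0.453 and 0.225 CPM and beside 4.38 and 4.01 CPM. MN1 and HOXA13, both transcriptional regulators, had differences of responses of 2.98 ± 0.27 and 2.73 ± 0.39 with direct contrasts of -0.27 and -0.05. KRT80, an epithelial keratin, reached 19.1 and 19.4 CPM with ARID1A WT from 0.589 and 0.674 CPM, and 16.5 and 17.0 CPM with ARID1B WT from no read in either empty vector library. KRT80 therefore ended at much the same level with both paralogs, and its rise with ARID1B WT was at least 186-fold against a floor of 3 counts over the pair. KLHDC7B was lower by the difference of responses, -4.50 ± 1.03 (adjusted p = 0.00104), but was not called without ARID1B WT replicate 1 (-3.62, adjusted p = 0.0871).

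At that level a further 39 genes were under 0.5 CPM in all 4 empty vector libraries and at least 2-fold apart in the direct contrast with and without strand, 23 of them higher and 16 lower. NPR1, the receptor of atrial natriuretic peptide, reached 22.6 and 23.4 CPM with ARID1A WT and 2.03 and 2.74 CPM with ARID1B WT, with a direct contrast of 3.25 ± 0.13 (adjusted p = 3.59e-16). UBE2QL1, a ubiquitin-conjugating enzyme, reached 12.1 and 11 CPM against 0.934 and 1.23 CPM, a direct contrast of 3.39 ± 0.22 (adjusted p = 1.5e-11). Both genes were near 0 in the empty vector, were read with either paralog and stood 9.54-fold and 10.5-fold higher with ARID1A WT. NEDD9, a scaffold of focal adhesions, reached 13.8 and 15.1 CPM against 3.74 and 2.93 CPM. Its difference of responses, 2.84 ± 1.02 (adjusted p = 0.0265), was not called without any single empty vector library, with adjusted p from 0.052 to 0.208. EGF, the epidermal growth factor, reached 8.78 and 9.18 CPM against 1.98 and 2.60 CPM. For EGF the difference of responses was 2.11 ± 0.74 (adjusted p = 0.0237), not called without empty vector replicate 2 (adjusted p = 0.093) or 4 (adjusted p = 0.343).

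FOXP2, a forkhead transcription factor known for its role in speech, was read with ARID1B WT and not with ARID1A WT. It stood at 9.94 and 17.0 CPM in the ARID1B WT libraries and held no read in either ARID1A WT library, and 1 read in all 4 empty vector libraries together (0.045 CPM in replicate 2). Against a floor of 3 counts over the ARID1A WT pair, FOXP2 was at least 176-fold higher with ARID1B WT. SOST, the WNT antagonist sclerostin, stood at 1.35 and 0.797 CPM with ARID1A WT and 16.4 and 16.5 CPM with ARID1B WT, with no read in any empty vector library. Its direct contrast was -3.97 ± 0.21 (adjusted p = 2.64e-11), and its rise over the empty vector was at least 15.4-fold and at least 182-fold. ELN, the elastic fibre protein elastin, stood at 43.8 and 46.7 CPM with ARID1A WT and 431 and 451 CPM with ARID1B WT over 0.0899 to 0.279 CPM. Its direct contrast of -3.28 ± 0.09 was called, whereas the difference of responses of -2.11 ± 1.21 was not (adjusted p = 0.172). EDN2, a vasoconstrictor endothelin, stood at 1.23 and 1.64 CPM with ARID1A WT and at 14.1 and 14 CPM with ARID1B WT. WNT4, a WNT ligand of the female reproductive tract, stood at 2.87 and 2.76 CPM against 10.4 and 10.9 CPM. Both readings were called for WNT4, at -2.49 ± 0.60 (adjusted p = 0.00178) and -1.92 ± 0.14, and the first was not without empty vector replicate 1 (adjusted p = 0.128). The guanine nucleotide-binding subunit GNAI1 and the matrix genes ISLR and FREM3 held no read in any empty vector library, so no difference of responses can be given for them, and their direct contrasts were -1.86, -2.32 and -1.89.

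**Figure D5:**
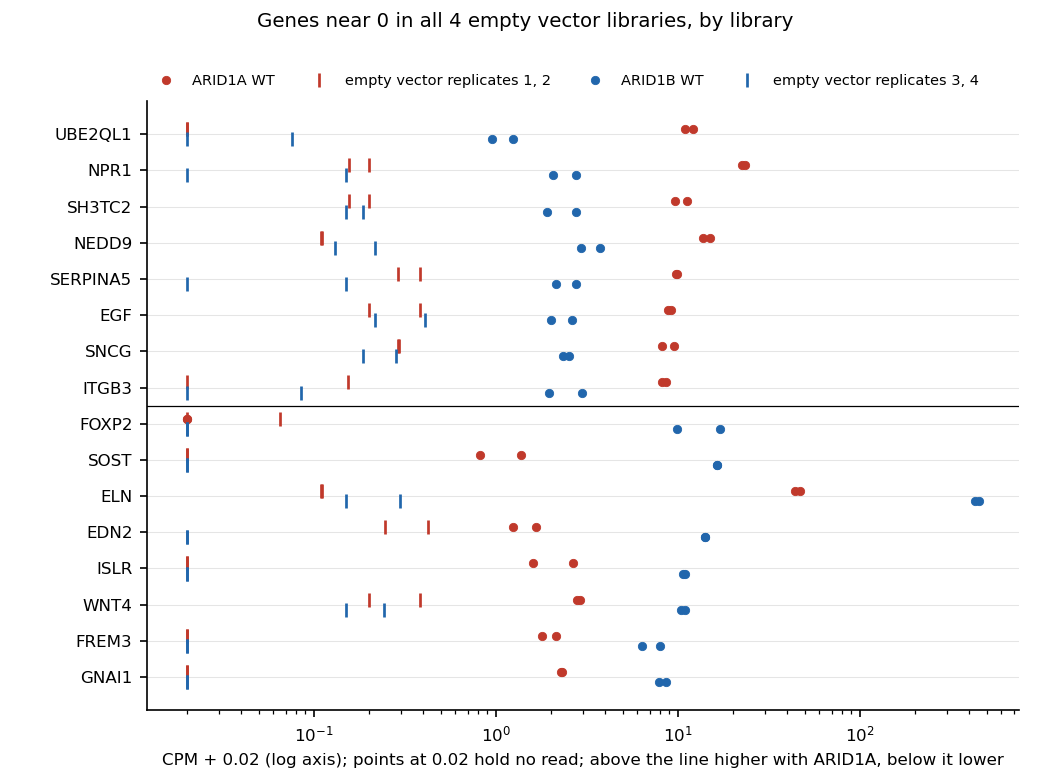
CPM + 0.02 in each of the 8 libraries (log axis) for 16 genes under 0.5 CPM in all 4 empty vector libraries; dots are ARID1A WT (red) and ARID1B WT (blue), ticks are the empty vector libraries, and marks at 0.02 hold no read. The 8 genes above the line, led by UBE2QL1 and NPR1, are on in both and higher with ARID1A WT; below the line blue dots lie to the right, and the red dots of FOXP2 lie at 0.02.

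Genes that lean to ARID1B WT were also read in the other constructs, whose libraries take no part in the comparison. FOXP2 averaged 20.8 CPM in the ARID1B M2 mutant, 7.76 CPM in the A457_G461del mutant, 2.77 CPM in the Block13 deletion and 0.873 CPM in the Block9 deletion, beside 13.5 CPM in ARID1B WT. In the ARID1A constructs the highest average of FOXP2 was 0.0596 CPM. ARID1B RNA averaged 4250, 2236, 883 and 344 CPM in the same 4 mutants and 3597 CPM in ARID1B WT. FOXP2 and ARID1B RNA thus had the same order over these 5 constructs. PTCHD2 averaged 43.2, 22.8, 7.51 and 2.09 CPM in the 4 mutants, beside 62.0 CPM in ARID1B WT and 0.721 to 2.08 CPM in the ARID1A mutants. Unlike FOXP2, PTCHD2 averaged more in ARID1B WT than in M2, so it did not share the order of ARID1B RNA. The same held for C15orf59 (37.1 CPM in ARID1B WT against 34.8 CPM in M2), SLC22A4 (11.1 against 7.57 CPM) and SOST (16.4 against 9.82 CPM). It also held for ELN (441 against 333 CPM), EDN2 (14.1 against 10.8 CPM), ISLR (10.8 against 9.37 CPM) and WNT4 (10.7 against 4.28 CPM). GNAI1 and FREM3 averaged 0.264 and 0.185 CPM in the M2 mutant, beside 8.23 and 7.15 CPM in ARID1B WT. In the ARID1A mutant labelled DBDmut they averaged 3.96 and 1.34 CPM. ELN averaged 22.5 CPM in the ARID1A mutant labelled CBR and 20.5 CPM in the ARID1B A457_G461del mutant. The mutation and the level of the construct cannot be told apart in these values.

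Among the 815 genes called at least 2-fold up with both constructs, each against its own pair, the difference of responses was called higher in 144, lower in 73 and not called in 598. The called share of the 815 was 26.6%, below the 41.6% of all tested genes. An uncalled difference does not show equal responses, since few empty vector reads leave its SE wide, as for ELN above. The median response of these 815 was 2.98 with ARID1A WT and 3.16 with ARID1B WT. Their median difference of responses was 0.06 with a median direct contrast of 0.44. In both readings 105 of them were higher and 24 lower, where 7.14% and 4.31% of all tested genes were. Of the 74 genes at least 2-fold down with both, the difference was called higher in 4 and lower in 24, with median responses of -1.91 and -1.56. The called share of the 74 was 37.8%, beside the same 41.6%.

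The subunits of BAF complexes went both ways. Of 27 tested, ARID1A and ARID1B included, 9 were higher (33.3%) and 5 lower (18.5%) in the difference of responses (median 0.15), beside 22.9% and 18.7% of all genes, and 4 higher and 10 lower in the direct contrast (median -0.14), where 20.2% and 15.0% of all genes were called. Besides the constructs, the members called the same way in both readings were DPF1, BCL7A and BRD9, higher, and SMARCA2 and GLTSCR1L, lower. DPF1 was not called in the direct contrast without ARID1A WT replicate 2 (0.33, adjusted p = 0.124) or ARID1B WT replicate 1 (0.35, adjusted p = 0.0883). BCL7A, an accessory subunit, stood at 96.2 and 98.7 CPM with ARID1A WT over 47.8 and 48.8 CPM, and at 65.1 and 69.5 CPM with ARID1B WT over 45.5 and 44.7 CPM, with readings of 0.43 ± 0.08 (adjusted p = 0.000103) and 0.53 ± 0.06 (adjusted p = 2.61e-08). SMARCA2, an ATPase subunit, stood at 39.9 and 40.1 CPM with ARID1A WT and 48.4 to 53 CPM in the other 6 libraries, with readings of -0.33 ± 0.10 (adjusted p = 0.00705) and -0.29 ± 0.07 (adjusted p = 0.00186). Without empty vector replicate 1 the difference of responses of SMARCA2 was -0.26 (adjusted p = 0.0521). SMARCA4, the alternative ATPase, was called in the difference of responses only, at 0.43 ± 0.06 beside a direct contrast of 0.02 ± 0.04 (adjusted p = 0.767). With strand ignored its direct contrast was called, at 0.13 (adjusted p = 0.0179).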

How the data were processed

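Polyadenylated RNA was sequenced, with libraries made with an NEBNext mRNA kit per the labels' protocols. Per the submitters' processing notes, bcl2fastq, STAR 2.5.2b, Bowtie2 2.29 and genome build hg19 were used; the annotation is not given in the sources used here. The authors deposited raw counts of reads per gene for 26346 symbols, in 3 strand columns; the column of reads opposite to the gene (column 4) was used. Reads that name no gene stayed out. In the ARID1A WT libraries and empty vector replicates 1 and 2 they were 31.5 to 36.3% of reads. With ARID1B WT and in empty vector replicates 3 and 4 they were 22.5 to 24.1%. Like the strand share, this difference cannot be told apart from the construct in the direct contrast.

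All 28 libraries were fitted with edgeR 4.0.16 (quasi-likelihood F test, two-sided, TMM) in 14 groups, the empty vector as 2 pairs. The filterByExpr filter left 14220 genes. The fit was tested on simulated data. The SE was derived from the fold change and its F statistic. CPM uses TMM-scaled library sizes. DESeq2 1.42.0, strand ignored (column 2), other scaling and filters, the 8 libraries alone, a replicate block and leaving out each library were alternatives.

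The members and lists were chosen with earlier results of these data known. Named genes, without noncoding and read-through symbols, had an average log2 CPM of at least 1 and met a rule: at least 2-fold in both readings (12 each way by the smaller fold), opposite responses (5 each way), at least 2-fold in the difference of responses alone (3 each way), silent in all empty vector libraries (8 each way), up to 4 called members per list of smallest p, and BAF subunits. No replicate pair differed by less than sampling noise.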

Additional observations from a re-analysis of the deposited data

Results flagged for a closer look

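In 5 of 118 genes examined, 1 of the 4 empty vector libraries lay apart from the other 3. Chance gives this pattern in about 1 of 20 groups of like libraries. That rate does not apply here, since the empty vector pairs differed in 58.5% of genes. For UBE2QL1 and FOXP2 the library apart held 1 read and the others none. The library apart held 0.0557 CPM for UBE2QL1, 0.045 CPM for FOXP2 and 0.334 CPM for CDH2, in each case the highest, and 0.167 CPM for SNCG and 7.59 CPM for LAMB1, the lowest. For CDH2, N-cadherin, that was empty vector replicate 4, and the other pair held 3 reads of CDH2 in all.

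Responses opposite in sign gave a called difference of responses for CAMKV (3.33), XAF1 (-5.66), SAMD9L (-3.32), UNC5B (-3.14) and GDF15 (-2.16).

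FOXP2 was read in libraries outside the comparison, at an average of 20.8 CPM in ARID1B M2, 7.76 CPM in ARID1B A457_G461del, 2.77 CPM in ARID1B Block13del and 0.873 CPM in ARID1B Block9del, all above the 4 empty vector libraries.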

How the results depend on the processing

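The difference of responses called 5112 to 5385 genes, with 529 to 565 at least 2-fold higher and 384 to 416 lower, when each of the 8 libraries was left out; the lone library of that pair was then assumed to vary like the other groups. The direct contrast called 3565 to 4997, with 559 to 670 higher and 99 to 127 lower. Genes called higher in both readings numbered 741 to 970 and lower 425 to 554, ARID1A WT against its own pair called 7482 to 8633, ARID1B WT 6195 to 7407 and the empty vector pairs 7066 to 8288. With only genes averaging a log2 CPM of 1 or more, the difference had 258 genes at least 2-fold lower, and the direct contrast 166 higher and 30 lower; fewer genes were tested there. With strand ignored the direct contrast had 388 genes at least 2-fold higher. With the 8 libraries alone, 1065 genes were called lower in both readings. With the empty vector as 1 group of 4, chosen after seeing the data, the direct contrast called 1922 genes; the cause of these 3 was not tested. That grouping ended the direct calls, among genes of the text, of CAPN3, GDF15, TRIB3, RRM2, CDC6, HMGCS1, ACTN4, CRELD2, CTGF, CYR61, TNC, SPARC, TLN2 and DPF1, with little change in their values. CDC6 was also not called in the direct contrast with strand ignored or when an ARID1A WT or ARID1B WT library was left out. Among named genes no value changed sign with a call under any alternative run. List medians of the difference of responses moved by more than the median SE of their members in 7 cases on leaving out a library and in 10 under other settings. The collagen median went from -0.22 to 0.31 without empty vector replicate 1 and to 0.25 with only the genes of higher level, and the matrix glycoprotein median from -0.51 to -0.08 without empty vector replicate 2 and to 0.01 with those genes. A replicate block gave 5896 calls for the difference of responses and 5000 for the direct contrast, and the correlation of deviations was 0.10 between ARID1A WT and ARID1B WT, 0.21 between ARID1A WT and the empty vector and 0.05 between ARID1B WT and the empty vector, so the replicate numbers are not shown to pair the samples. For silent genes depth is the limit, since 1 read was worth 0.0449 to 0.0654 CPM.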
